A study of Mus musculus with 11 samples.

Results

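The actin cytoskeleton and cell motility genes described here are 48 genes chosen by name from a deposited table of RNA sequencing counts that lists 52636 genes. They cover the actins, the proteins that bind actin monomers, the branching complex and its activators, crosslinkers, adhesion linkers, myosins, vimentin and small GTPases with their exchange factors. Of these, 47 were found by the symbol in the table and 1, Diaph1, by its identifier because the table calls it Diap1. All 48 passed the filter on low counts. CD8 T cells were sorted from the spleens of C57BL/6 mice, with no transgene or deletion named for any group. The naive group (3 libraries) held CD44lo CD8 cells, and its labels repeat the infection text of the memory groups and add a time entry of 6 to 8 weeks whose meaning is not stated. The CD45RBhi memory and CD45RBlo memory groups (4 libraries each) held CD8 cells that bound a tetramer given as Kb NP396. These cells were taken on days 42 to 45, in week 6, after 200000 pfu of LCMV Armstrong given i.p. LCMV Armstrong is a virus strain that causes an acute infection. The tetramer marks T cells specific for 1 viral peptide, and CD45RB is a form of the phosphatase CD45. The labels state a sort purity above 99% and do not say whether replicates are separate animals. The p-values therefore cover the spread between these libraries only, which may be technical.

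Actin monomers add to the barbed end of a filament and leave at the other end. Profilin feeds monomers to growing ends, thymosins hold them in reserve, cofilin cuts old filaments, capping proteins close the ends, and the Arp2/3 complex starts branches once WASP or WAVE proteins switch it on. Small GTPases direct these machines, and T cells use them to crawl, to hold integrin contacts through talin and vinculin, and to build the synapse with a target cell.

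Serum response factor, with its coactivators of the MRTF family, is known to drive many actin genes through the CArG box, so the promoters of the members were read for it. RefSeq promoters on GRCm38.p6, from 250 bases before to 50 bases after the start of a gene, were at hand for 40 of the 48 members. A CArG box, a pattern that is the same on both strands and the single motif searched, was present in 3 of these 40 (7.5%) and in 488 of the 27025 genes in that table (1.81%). A match is a description of the letters and not a shown binding site. Members without a promoter at hand were not read, and bases outside this window were not searched. A member not named here is therefore not shown to lack a box. The 3 genes were Actg1, Arpc4 and Vcl, which come back in the results below. The stretches upstream of their starts are shown 5′ to 3′ with the CArG box in capitals, at chr11:120348531-120348630 on the minus strand for Actg1, chr6:113377863-113377917 on the plus strand for Arpc4 and chr14:20929148-20929225 on the plus strand for Vcl.
Actg1: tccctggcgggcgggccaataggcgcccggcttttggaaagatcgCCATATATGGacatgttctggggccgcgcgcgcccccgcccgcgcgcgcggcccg
Arpc4: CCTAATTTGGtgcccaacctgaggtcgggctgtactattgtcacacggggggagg
Vcl: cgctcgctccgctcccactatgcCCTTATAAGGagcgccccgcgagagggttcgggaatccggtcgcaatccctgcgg
The box lies 90 to 81 bases before the start of Actg1, 250 to 241 before that of Arpc4 and 227 to 218 before that of Vcl. The mRNA of the factor itself, Srf, stood at 59.2, 62.8 and 58.7 CPM (counts per 1 M of a library's scaled total) in naive libraries 1 to 3, at 72.5, 58.5, 65.1 and 76.9 in CD45RBhi libraries 1 to 4, and at 74.2, 51.4, 62.5 and 62.4 in CD45RBlo libraries 1 to 4. Its groups overlapped, and its log2 difference from naive was 0.18 ± 0.126 in CD45RBhi (adjusted p = 0.279) and 0.06 ± 0.126 in CD45RBlo (adjusted p = 0.758). The sign of the Srf difference in CD45RBlo turned to -0.08 with scaling by library size alone and to -0.20 with a correction for gene length and GC content. Of its coactivators, Mkl1 (now called Mrtfa) differed by -0.24 ± 0.142 and -0.09 ± 0.142 (adjusted p = 0.193 and 0.665). Mkl2 (Mrtfb) rose by 0.57 ± 0.137 in CD45RBhi (adjusted p = 0.0049) and by 0.42 ± 0.137 in CD45RBlo (adjusted p = 0.0266). The CD45RBlo libraries overlapped naive for Mkl2, and that call was lost with library size alone (0.28), while Mkl1 then stood at -0.39 in CD45RBhi and passed.

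Libraries held 18.0 to 23.2 M counts. The 48 members took 4.06 ± 0.0272% of the counts in naive libraries (SD, n = 3), 4.92 ± 0.180% in CD45RBhi libraries (SD, n = 4) and 4.68 ± 0.223% in CD45RBlo libraries (SD, n = 4), with no overlap between naive and either memory group. In bulk samples, fewer cells of a type and less RNA per cell cannot be told apart. Markers of CD8 T cells (7 genes) summed to 7501 to 8009 CPM in naive, 8127 to 9484 in CD45RBhi and 7565 to 9241 in CD45RBlo libraries. Summed markers of several other cell types were higher in naive libraries: 10 erythroid and platelet genes summed to 241 to 528 CPM there against 0.304 to 2.20 in CD45RBhi and 0.242 to 25.0 in CD45RBlo, and 9 B cell genes to 53.9 to 63.4 against 11.2 to 23.4 and 15.5 to 23.7. Sums were 42.8 to 69.7, 30.0 to 40.4 and 25.9 to 36.8 CPM for 13 myeloid genes and 275 to 299, 77.9 to 112 and 51.3 to 105 for 8 stromal genes, nearly all of it Pecam1, which T cells also express. Sums were 3.29 to 4.53, 2.21 to 3.68 and 3.45 to 4.38 CPM for 3 CD4 T cell genes and 541 to 594, 550 to 640 and 557 to 610 for 10 genes of dissociation stress. Single markers went the other way: Cd22, on the B cell list, averaged 1.88 CPM in naive libraries against 7.93 for CD45RBhi and 13.9 for CD45RBlo, and Cd68, on the myeloid list, 3.65 against 31.8 and 27.5. Egr1, on the stress list, averaged 120 CPM in naive against 17.5 and 18.1, and Junb 117 against 181 and 190. Of the 9 stress genes tested, 3 rose and 2 fell in CD45RBhi, and 4 rose and 2 fell in CD45RBlo. Over all genes tested, 22.3% rose and 19.1% fell in CD45RBhi, and 22.4% rose and 19.8% fell in CD45RBlo. Pax5 and Ppbp were at 0 in all memory libraries, and S100a9 and Col3a1 in all 11 libraries. These marker levels move with the naive and memory groups, and their part in the results below was not tested.

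Scaled by exonic length, the most abundant members were the monomer store Tmsb4x at 2247 RPKM (CPM per kilobase of exon), Actb at 1714, Coro1a at 1195, Pfn1 at 735 and Rac2 at 681 in naive cells. In CD45RBhi cells Tmsb4x stood at 3978 RPKM, Actb at 2454, Coro1a at 1183, Rac2 at 1144 and Pfn1 at 952, and in CD45RBlo cells at 3214, 2230, 1091, 1082 and 825 in the same order. The lowest level per length was that of Vcl, at 0.308, 1.48 and 1.57 RPKM in naive, CD45RBhi and CD45RBlo cells. These lengths pool every annotated exon of a gene, so the order of members depends on the annotation. Pfn1 was scaled by 2405 bases, while its protein-coding transcripts hold 977 different stretches of 50 bases.

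The first comparison asked how memory cells of either CD45RB class differ from naive cells. More members were higher than lower in memory: 24 rose and 4 fell in CD45RBhi against naive, and 21 rose and 4 fell in CD45RBlo against naive, at an adjusted p under 0.05 over all genes tested (edgeR quasi-likelihood F test). The background over the 13735 genes tested was 41.5% called in CD45RBhi (22.3% higher and 19.1% lower) and 42.2% in CD45RBlo (22.4% higher and 19.8% lower). Members called higher made up 50% and 43.8% of the 48, and those called lower 8.33% in each. The median log2 difference of the members was 0.35 in CD45RBhi and 0.24 in CD45RBlo, and that of all genes tested was -0.01 in each. The largest rises were those of the myosin Myo1f, the adhesion linker Vcl, the intermediate filament gene Vim and the capping protein gene Capg, and the largest fall was that of the crosslinker Actn1. Both comparisons use the same 3 naive libraries, so their values are set side by side and not taken as support for each other. Scaling by library size alone moved the median of all genes to -0.16 and -0.14 and left 14 members higher and 5 lower in CD45RBhi and 14 higher and 6 lower in CD45RBlo. Under that scaling the split over all genes was 2301 higher and 3724 lower in CD45RBhi (3064 and 2630 with TMM scaling) and 2356 and 3609 in CD45RBlo (3072 and 2722).

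**Figure D1:**
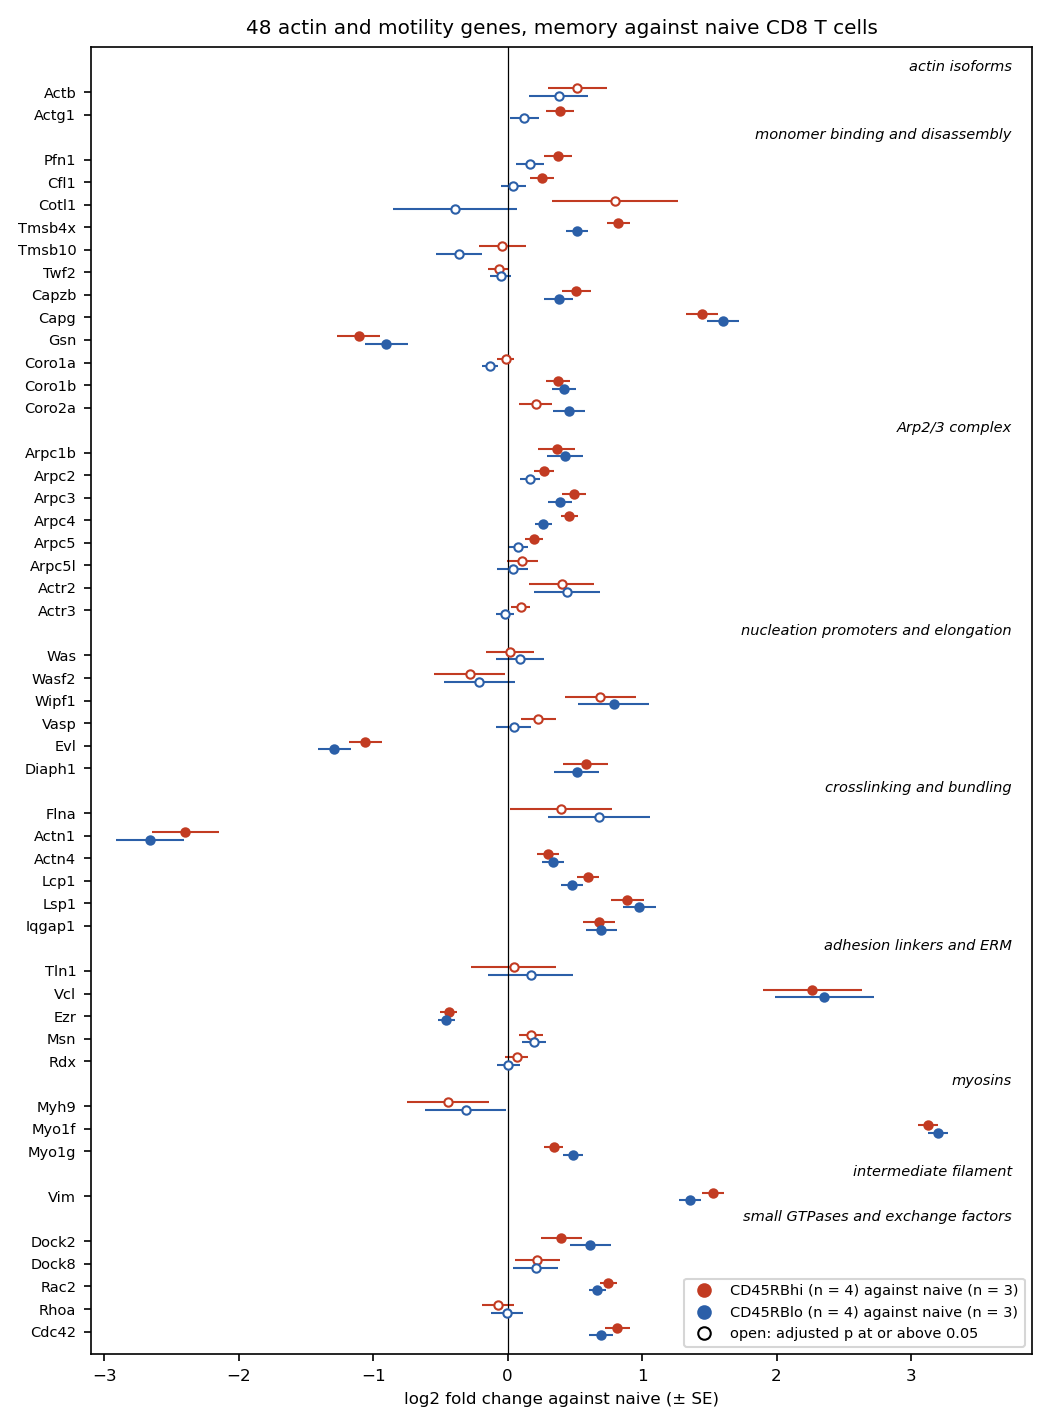
Log2 fold change of each of the 48 members against naive (x axis, ± SE of the fit), grouped by role, for CD45RBhi (red) and CD45RBlo (blue) memory cells; filled points have an adjusted p under 0.05. Most filled points lie right of 0, with Myo1f, Vcl, Vim and Capg farthest right, while Actn1, Evl, Gsn and Ezr lie to the left.

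The cytoplasmic actins are the building blocks of the filaments. Actb, the beta isoform, varied widely among memory libraries and stood at 4985, 4334 and 4458 CPM in naive, at 8810, 4534, 6548 and 6404 in CD45RBhi and at 8128, 4157, 6182 and 5433 in CD45RBlo libraries. CD45RBlo 2 lay below all naive libraries and CD45RBhi 2 within their range, so the groups overlapped, and the log2 difference was 0.52 ± 0.219 in CD45RBhi (adjusted p = 0.076) and 0.38 ± 0.218 in CD45RBlo (adjusted p = 0.186). Actg1, the gamma isoform, stood at 579, 530 and 522 CPM in naive, at 791, 611, 681 and 763 in CD45RBhi and at 688, 546, 558 and 579 in CD45RBlo libraries. All CD45RBhi libraries lay above the naive ones and Actg1 rose there by 0.39 ± 0.105 (adjusted p = 0.0101), while the CD45RBlo libraries overlapped the naive ones (0.12 ± 0.105, adjusted p = 0.369). Actg1 counts are uncertain, since 45.6% of its 50-base stretches occur in other genes, 12 of them pseudogenes.

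Among the 12 genes for monomer binding, capping and disassembly, 6 rose and 1 fell in CD45RBhi, and 5 rose and 1 fell in CD45RBlo. Counts by role, here and below, stand beside the shares of all genes tested. These were 22.3% higher and 19.1% lower in CD45RBhi, and 22.4% and 19.8% in CD45RBlo. Tmsb4x (chrX:167207093-167209315, minus strand), which encodes the chief monomer-holding thymosin, stood at 2947, 2909 and 3385 CPM in naive, at 5502, 5467, 5135 and 5712 in CD45RBhi and at 4789, 4636, 3844 and 4357 in CD45RBlo libraries. The 3 groups did not overlap, and the rise over naive was 0.82 ± 0.0853 in CD45RBhi (adjusted p = 6.71e-06) and 0.52 ± 0.0846 in CD45RBlo (adjusted p = 0.000312). Its relative Tmsb10 stood at 129, 139 and 181 CPM in naive, at 137, 118, 143 and 186 in CD45RBhi and at 150, 104, 107 and 105 in CD45RBlo libraries. These ranges overlapped and neither difference passed (-0.04 ± 0.173 and -0.36 ± 0.173, adjusted p = 0.879 and 0.113), and 27.0% of the 50-base stretches of Tmsb10 occur in other genes.

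The gelsolin family genes among the members, Capg and Gsn, moved in opposite directions. Capg (chr6:72544391-72562983, plus strand), which caps filament ends without cutting, stood at 23.5, 21.6 and 24.7 CPM in naive, at 54.1, 63.9, 71.1 and 64.1 in CD45RBhi and at 61.7, 74.0, 69.6 and 77.1 in CD45RBlo libraries. Every memory library lay above every naive library, by 1.44 ± 0.117 in CD45RBhi (adjusted p = 7.13e-07) and 1.60 ± 0.118 in CD45RBlo (adjusted p = 2.61e-07). Gsn (chr2:35256380-35307892, plus strand), which cuts and caps filaments, stood at 83.0, 89.7 and 85.0 CPM in naive, at 29.1, 42.1, 39.2 and 48.8 in CD45RBhi and at 36.9, 44.8, 47.1 and 54.8 in CD45RBlo libraries. Every memory library lay below every naive one, and Gsn fell by 1.11 ± 0.160 in CD45RBhi (adjusted p = 0.000123) and by 0.90 ± 0.160 in CD45RBlo (adjusted p = 0.000555). Capzb, the beta subunit of the main capping protein, rose by 0.51 and 0.38 (adjusted p = 0.00192 and 0.0119).

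The coronins among the members, which bind filaments and the Arp2/3 complex, differed among themselves. Coro1a, the leukocyte form, stood at 3440, 3231 and 3302 CPM in naive, at 3097, 3501, 3330 and 3238 in CD45RBhi and at 2939, 3214, 2992 and 2998 in CD45RBlo libraries. The CD45RBhi and naive ranges overlapped, all CD45RBlo libraries lay just below the naive ones, and neither difference passed (-0.01 ± 0.0624 and -0.13 ± 0.0623, adjusted p = 0.876 and 0.112). Coro1b stood at 336, 299 and 334 CPM in naive, at 372, 471, 427 and 403 in CD45RBhi and at 413, 468, 441 and 408 in CD45RBlo libraries. It was higher in all memory libraries, by 0.37 ± 0.0907 (adjusted p = 0.00524) and 0.42 ± 0.0908 (adjusted p = 0.00233), though 19.9% of its 50-base stretches are shared with the overlapping gene Ptprcap. Coro2a stood at 33.3, 38.3 and 43.6 CPM in naive, at 43.3, 39.5, 42.7 and 51.9 in CD45RBhi and at 53.3, 48.5, 52.4 and 56.5 in CD45RBlo libraries. All CD45RBlo libraries lay above naive, a rise of 0.46 ± 0.121 (adjusted p = 0.00852), while the CD45RBhi libraries overlapped naive at 0.21 ± 0.120 (adjusted p = 0.19). Whether Coro2a differed between the memory groups is taken up below with the other members.

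Of the remaining genes in this role, Pfn1 (profilin) rose by 0.37 ± 0.106 in CD45RBhi (adjusted p = 0.0125) and stood at 0.17 ± 0.105 in CD45RBlo (adjusted p = 0.228). Cfl1 (cofilin) rose by 0.25 ± 0.0899 in CD45RBhi (adjusted p = 0.0382) and stood at 0.04 in CD45RBlo (adjusted p = 0.735). The Cfl1 call was lost when naive 1, naive 2, CD45RBhi 3 or CD45RBhi 4 was left out (0.20 to 0.27). Twf2, a twinfilin that binds monomers and filament ends, differed by -0.07 and -0.05 and passed in neither. Cotl1, a filament-binding relative of cofilin, varied within groups and passed in neither (0.80 ± 0.470 and -0.39 ± 0.462, adjusted p = 0.195 and 0.533).

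In the Arp2/3 complex, which starts branches on filaments, 5 of 8 genes rose in CD45RBhi and 3 of 8 rose in CD45RBlo, with none called lower. Arpc3 rose by 0.49 ± 0.0873 and 0.39 ± 0.0871 (adjusted p = 0.000589 and 0.003), and Arpc4 by 0.46 ± 0.0643 and 0.26 ± 0.0640 (adjusted p = 9.62e-05 and 0.00502). Arpc2 rose by 0.27 ± 0.0769 in CD45RBhi (adjusted p = 0.0132; 0.24 and no longer called without naive 2) and stood at 0.16 in CD45RBlo (adjusted p = 0.104). Arpc1b rose by 0.36 and 0.42 (adjusted p = 0.0454 and 0.0224), and both calls depended on single libraries. In CD45RBhi the Arpc1b call was lost without any 1 of the naive libraries, CD45RBhi 2 (0.24) or CD45RBhi 3 (0.33), and in CD45RBlo without any 1 of the naive libraries, CD45RBlo 2 or CD45RBlo 3 (0.37 to 0.44).

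The p16 subunit has a pair of forms. Arpc5 stood at 608, 603 and 698 CPM in naive, at 722, 727, 747 and 716 in CD45RBhi and at 646, 672, 685 and 687 in CD45RBlo libraries. CD45RBhi lay above naive in every library, a rise of 0.19 ± 0.0687 (adjusted p = 0.038), and CD45RBlo overlapped naive (0.08 ± 0.0685, adjusted p = 0.384). The Arpc5 call was lost when naive 1, naive 2 or any CD45RBhi library was left out (0.16 to 0.20). Arpc5l stood at 107, 98.6 and 116 CPM in naive, at 96.1, 135, 123 and 108 in CD45RBhi and at 101, 120, 107 and 113 in CD45RBlo libraries. All 3 ranges overlapped (0.11 ± 0.116 and 0.04 ± 0.116, adjusted p = 0.49 and 0.819). The actin-related subunits passed in neither comparison: Actr2 stood at 0.40 ± 0.244 and 0.44 ± 0.245 (adjusted p = 0.211 and 0.172), and Actr3, which shares 44.5% of its 50-base stretches with other genes, at 0.10 and -0.02.

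Of the 6 activators and elongation factors, 1 rose and 1 fell in CD45RBhi, and 2 rose and 1 fell in CD45RBlo. The CD45RBhi shares, 16.7% each, were close to those over all genes. Evl (chr12:108554720-108688516, plus strand), an Ena/VASP protein that shields growing ends, stood at 441, 452 and 474 CPM in naive, at 179, 263, 211 and 222 in CD45RBhi and at 163, 220, 183 and 180 in CD45RBlo libraries. Every memory library was below every naive one, and Evl fell by 1.06 ± 0.123 (adjusted p = 2.03e-05) and by 1.29 ± 0.124 (adjusted p = 2.99e-06). The other Ena/VASP gene among the members, Vasp, stood at 0.23 and 0.05 and passed in neither (adjusted p = 0.185 and 0.81). Wipf1, which encodes the partner that stabilises WASP, stood at 116, 119 and 106 CPM in naive, at 239, 100, 179 and 213 in CD45RBhi and at 262, 130, 187 and 205 in CD45RBlo libraries. CD45RBhi 2 lay below the naive libraries (0.69 ± 0.264, adjusted p = 0.0535), while all CD45RBlo libraries lay above them, a rise of 0.79 ± 0.265 (adjusted p = 0.0298). That Wipf1 call was lost without any 1 of the naive libraries, CD45RBlo 1 or CD45RBlo 4 (0.62 to 0.82).

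Diaph1, a formin that lengthens unbranched filaments, rose by 0.58 ± 0.166 and 0.51 ± 0.165 (adjusted p = 0.0132 and 0.0244). Its call was lost in CD45RBhi without naive 3 (0.54), and in CD45RBlo without any 1 of the naive libraries or CD45RBlo 1 (0.38 to 0.54). Was, the WASP gene itself, stood at 0.02 and 0.09, and Wasf2, a WAVE gene, at -0.28 ± 0.264 and -0.21 ± 0.264, and neither passed.

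Of the 6 crosslinkers and bundlers, 4 rose and 1 fell in each comparison. Actn1 (chr12:80167547-80260371, minus strand), an alpha-actinin that ties filaments into loose bundles, stood at 229, 252 and 194 CPM in naive, at 27.5, 40.2, 41.8 and 61.2 in CD45RBhi and at 23.6, 41.7, 31.7 and 45.0 in CD45RBlo libraries. The highest memory library was far below the lowest naive one, and Actn1 fell by 2.40 ± 0.249 (adjusted p = 6.92e-06) and by 2.66 ± 0.251 (adjusted p = 2.63e-06). Its close relative Actn4 moved the other way, with 513, 516 and 473 CPM in naive, 548, 646, 632 and 640 in CD45RBhi and 616, 698, 589 and 629 in CD45RBlo libraries. All memory libraries lay above naive, by 0.30 ± 0.0826 in CD45RBhi (adjusted p = 0.0106; 0.26 and no longer called without naive 3) and by 0.34 ± 0.0826 in CD45RBlo (adjusted p = 0.00523). Under 0.5% of the 50-base stretches of either gene occur in the other (0.421% and 0.372%).

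Lsp1, a leukocyte protein that bundles filaments, stood at 709, 701 and 740 CPM in naive, at 1004, 1529, 1423 and 1355 in CD45RBhi and at 1261, 1492, 1465 and 1429 in CD45RBlo libraries. No memory library reached down to naive, and the rise was 0.89 ± 0.121 (adjusted p = 7.75e-05) and 0.98 ± 0.122 (adjusted p = 3.17e-05). Lcp1, the leukocyte plastin, rose by 0.60 ± 0.0840 and 0.48 ± 0.0837 (adjusted p = 9.91e-05 and 0.000524). Iqgap1, a scaffold that binds filaments and Rac or Cdc42, rose by 0.68 ± 0.118 and 0.70 ± 0.118 (adjusted p = 0.000522 and 0.000397). Flna, the filamin that links filaments at angles and to integrins, varied within every group and passed in neither (0.40 ± 0.378 and 0.68 ± 0.381, adjusted p = 0.432 and 0.175).

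Of the 5 adhesion and membrane linkers, 1 rose and 1 fell in each comparison (20% each), close to the shares over all genes. Vcl (chr14:20929398-21033676, plus strand), vinculin, which ties talin to filaments at adhesion sites, was low in all groups: 2.19, 3.99 and 1.38 CPM in naive, 18.8, 8.24, 12.5 and 8.89 in CD45RBhi and 12.8, 10.3, 15.3 and 13.2 in CD45RBlo libraries. Its naive values rest on 48, 77 and 28 counts, every memory library lay above them, and the rise was 2.27 ± 0.366 (adjusted p = 0.000293) and 2.36 ± 0.366 (adjusted p = 0.000206). Vinculin is also abundant in platelets, and 5 platelet genes of the marker list summed to 5.08 to 9.68 CPM in naive libraries, against 0 to 0.628 for CD45RBhi and 0 to 0.227 for CD45RBlo. Tln1, talin, which switches integrins on, stood at 0.04 ± 0.314 and 0.17 ± 0.315 and passed in neither.

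Ezrin, moesin and radixin bind filaments to the plasma membrane. Ezr (chr17:6738041-6782784, minus strand) stood at 962, 1018 and 953 CPM in naive, at 727, 738, 714 and 705 in CD45RBhi and at 723, 737, 662 and 727 in CD45RBlo libraries. All memory libraries lay below naive within a narrow range, and Ezr fell by 0.44 ± 0.0631 (adjusted p = 0.000118) and by 0.46 ± 0.0631 (adjusted p = 7.64e-05). Msn stood at 2590, 2606 and 2230 CPM in naive, at 3000, 2421, 2781 and 2954 in CD45RBhi and at 2960, 2752, 2628 and 3025 in CD45RBlo libraries. CD45RBhi overlapped naive (0.17 ± 0.0894, adjusted p = 0.143), and CD45RBlo lay just above naive in every library without passing (0.20 ± 0.0894, adjusted p = 0.0931). Rdx stood at 161, 156 and 145 CPM in naive, at 168, 158, 160 and 159 in CD45RBhi and at 176, 155, 138 and 150 in CD45RBlo libraries. Its ranges overlapped throughout (0.07 ± 0.0862 and 0.01 ± 0.0862, adjusted p = 0.576 and 0.964), and Msn had the highest level per length of the 3 genes in every group (391, 441 and 449 RPKM).

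Both class I myosins among the members, motors that join membranes to filaments, rose. Myo1f (chr17:33555707-33607764, plus strand), an immune-cell myosin, had the largest change of all members, with 142, 139 and 148 CPM in naive, 1179, 1184, 1335 and 1300 in CD45RBhi and 1288, 1303, 1313 and 1337 in CD45RBlo libraries. Every memory library was several times above every naive one, at 3.13 ± 0.0744 (adjusted p = 1.05e-11) in CD45RBhi and 3.20 ± 0.0746 (adjusted p = 8.62e-12) in CD45RBlo, or 8.75-fold and 9.17-fold. Myo1g, its lymphocyte relative, rose by 0.34 ± 0.0729 and 0.49 ± 0.0732 (adjusted p = 0.00228 and 0.000154). Myh9, the heavy chain of non-muscle myosin that pulls filaments together, stood at -0.44 ± 0.302 and -0.31 ± 0.303 and passed in neither.

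Vim (chr2:13573927-13582826, plus strand), the intermediate filament protein of leukocytes, stood at 220, 215 and 190 CPM in naive, at 577, 577, 613 and 630 in CD45RBhi and at 555, 505, 504 and 573 in CD45RBlo libraries. The 3 groups did not overlap, and the rise over naive was 1.52 ± 0.0825 (adjusted p = 1.57e-08) and 1.36 ± 0.0820 (adjusted p = 4.05e-08).

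**Figure D2:**
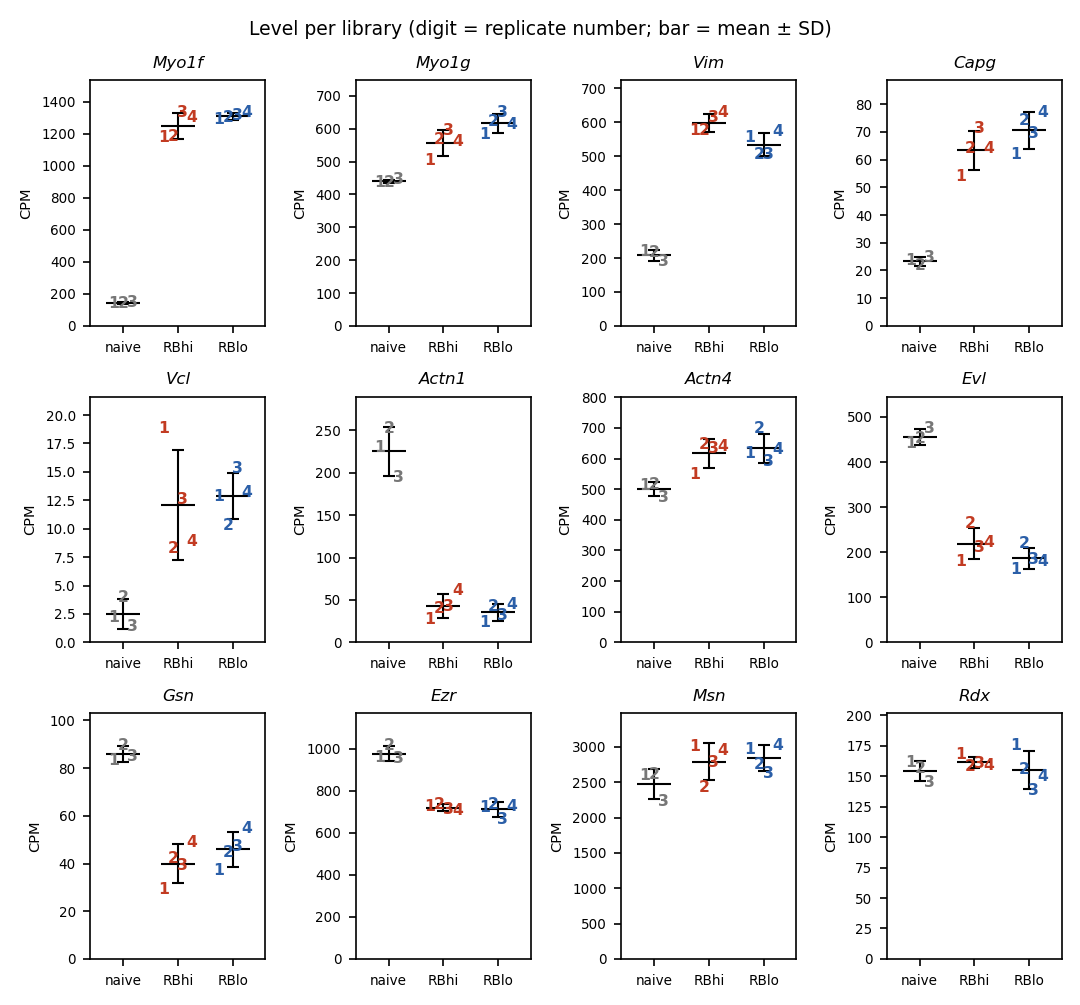
Level of 12 members in each library (y axis, CPM from 0; each digit is 1 library at its replicate number, the cross-bar the mean and SD of 3 naive, 4 CD45RBhi and 4 CD45RBlo libraries). Myo1f, Vim, Capg and Vcl lie higher and Actn1, Evl, Gsn and Ezr lower in all memory libraries than in all naive ones, while Msn and Rdx stay close to naive.

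Of the 5 small GTPases and exchange factors, 3 rose in each comparison. Cdc42, the GTPase of polarity and filopodia, stood at 953, 903 and 950 CPM in naive, at 1907, 1448, 1630 and 1603 in CD45RBhi and at 1643, 1401, 1463 and 1541 in CD45RBlo libraries. All memory libraries lay above naive, by 0.82 ± 0.0919 (adjusted p = 1.47e-05) and 0.69 ± 0.0916 (adjusted p = 5.32e-05). Rac2, the blood-cell Rac, rose by 0.75 ± 0.0613 and 0.67 ± 0.0612 (adjusted p = 7.51e-07 and 1.99e-06). Dock2, an exchange factor for Rac, rose by 0.40 ± 0.151 and 0.61 ± 0.152 (adjusted p = 0.0495 and 0.0057), and its CD45RBhi call was lost without any 1 of the naive libraries, CD45RBhi 1, CD45RBhi 3 or CD45RBhi 4 (0.30 to 0.45). Dock8, an exchange factor for Cdc42, stood at 0.22 and 0.21, and Rhoa, the GTPase of contraction, at -0.07 and -0.01, and neither passed.

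In all, 23 members passed in both comparisons and 18 in neither. A further 5 passed in CD45RBhi alone (Actg1, Pfn1, Cfl1, Arpc2 and Arpc5) and 2 in CD45RBlo alone (Coro2a and Wipf1). Over all genes tested, 41.5% passed in CD45RBhi and 42.2% in CD45RBlo. The share of all genes passing in both was not computed, and the comparisons share their naive libraries. The 23 is therefore not read as particular to the members. Passing in 1 comparison and not in the other does not show that the memory groups differ, and that difference was tested directly as described below. The members' groups did not overlap for 22 higher and 4 lower in CD45RBhi, where the background was 24.1% and 23.3% of all genes (47.4% in all), and for 22 higher and 5 lower in CD45RBlo, where it was 25.2% and 24.3% (49.6% in all).

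Beyond the members, 125 other genes of the actin pathway were listed by role, of which 118 passed the filter. Of these, 47 rose (39.8%) and 17 fell (14.4%) in CD45RBhi against naive, where the background was 22.3% of all genes higher and 19.1% lower. In CD45RBlo, 48 of the 118 rose and 18 fell, where the background was 22.4% higher and 19.8% lower. The median log2 differences were 0.22 and 0.21. Of the 13 further myosin and tropomyosin genes, 8 and 7 rose and none fell, and of the 12 membrane linkers, 0 and 2 rose and 5 fell in each. The largest rises in CD45RBhi were those of the GTPase gene Rhoc (5.03 ± 0.293), the WAVE complex subunit Cyfip1 (3.47 ± 0.237), the class I myosin Myo1e (3.42 ± 0.220) and Swap70, a protein that binds Rac and filaments (3.38 ± 0.164). In CD45RBlo they were Rhoc (5.16 ± 0.294), Cyfip1 (3.80 ± 0.240), Myo1e (3.79 ± 0.222) and the bundling plastin Pls3 (3.42 ± 0.350). Cyfip1 stood at 6.30, 3.06 and 7.09 CPM in naive, at 56.1, 49.5, 67.7 and 70.5 in CD45RBhi and at 82.5, 75.8, 76.6 and 71.7 in CD45RBlo libraries, with no overlap. Rhoc had 5, 4 and 2 counts in the naive libraries against 102 to 152 in memory libraries, so the size of its change is poorly fixed.

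The largest falls were those of Pak1, a kinase that Rac and Cdc42 switch on (-6.29 ± 0.629 and -5.91 ± 0.612), the membrane protein gene Marcks (-2.77 ± 0.535 and -3.36 ± 0.560), the bundling protein gene Fscn1 (-2.73 ± 0.463 and -3.35 ± 0.489) and Epb41l2, of the band 4.1 family that anchors the membrane skeleton (-1.69 ± 0.158 and -1.49 ± 0.157). Pak1 stood at 13.2, 11.9 and 10.1 CPM in naive libraries and had 0 to 9 counts in each memory library, so the fitted size depends on how such counts are smoothed. Marcks and Fscn1 were low in naive cells too, at 2.65 and 1.75 CPM on average. Epb41l2 stood at 67.7, 70.2 and 53.6 CPM in naive, at 19.2, 18.1, 19.7 and 22.1 in CD45RBhi and at 21.7, 17.1, 28.3 and 23.9 in CD45RBlo libraries, with no overlap. Each of these named changes passed (adjusted p at most 0.00112).

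The second comparison asked how the memory groups differ from each other. Without regard to replicate number, 0 of 48 members passed (edgeR quasi-likelihood F test), where the background was 0.124% of all genes (0.0801% higher and 0.0437% lower). At an unadjusted p under 0.05 there were 8 of 48 members, beside 1236 of the 13735 genes tested. DESeq2 called 0 members, beside 144 of all genes. Members differed by -0.28 to 1.19 on the log2 scale, with a median of 0.04 and a lowest adjusted p of 0.23. Same-numbered CD45RBhi and CD45RBlo libraries deviated together from their group means, which pairs them by the data and not by any label. With the replicate number as a block, 6 members were higher in CD45RBhi and 1 was lower, where the background was 5.59% of 12637 genes (2.52% higher and 3.08% lower).

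Cotl1 (chr8:119809222-119840544, minus strand), the coactosin-like filament binder, gave the largest of these differences. It stood at 96.7, 243, 280 and 101 CPM in CD45RBhi, at 59.6, 163, 47.3 and 45.8 in CD45RBlo and at 94.6, 116 and 99.8 in naive libraries. CD45RBhi was higher in each of the 4 pairs (0.70, 0.58, 2.56 and 1.14), the groups overlapped, and the paired estimate was 1.22 ± 0.237 (adjusted p = 0.0133, and 0.00173 to 0.0398 over the 6 paired fits run). Without pair 3 the estimate was 0.80, still called.

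Tmsb4x, whose levels are given above, was higher in CD45RBhi in each pair (0.20, 0.24, 0.42 and 0.39), at 0.31 ± 0.0482 (adjusted p = 0.00381, and 0.00338 to 0.0334 over the paired fits). Its memory groups did not overlap. Cotl1 and Tmsb4x were called in all 6 paired fits, which leave out each pair in turn or correct for gene length and GC content. The remaining 5 were not, and their calls depended on single pairs.

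Actg1 was higher by 0.26 ± 0.0526 (adjusted p = 0.0151, and 0.00571 to 0.0889 over the paired fits), with pair differences of 0.20, 0.16, 0.29 and 0.40, and was lost without pair 3 or pair 4. Pfn1 stood at 2062, 2631, 2046 and 2417 CPM in CD45RBhi and at 1967, 2251, 1702 and 2012 in CD45RBlo libraries, against 1723, 1775 and 1803 in naive. These memory ranges overlapped, the pairs differed by 0.07, 0.22, 0.27 and 0.26, and the estimate was 0.21 ± 0.0487 (adjusted p = 0.0288, and 0.00358 to 0.139), lost without pair 2, 3 or 4. Evl was higher by 0.23 ± 0.0549 (adjusted p = 0.0313, and 0.00352 to 0.132) and was lost when any 1 pair was left out.

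Arpc4 stood at 280, 297, 271 and 292 CPM in CD45RBhi, at 251, 251, 242 and 253 in CD45RBlo and at 207, 207 and 209 in naive libraries. The 3 groups did not overlap, the paired estimate was 0.20 ± 0.0512 (adjusted p = 0.0445, and 0.0316 to 0.147), and the call was lost when any 1 pair was left out. Of the 50-base stretches of Arpc4, 10.03% are shared with the overlapping gene Ttll3. Flna (chrX:74223461-74249820, minus strand) was the member called lower, with 2122, 552, 1257 and 1415 CPM in CD45RBhi, 2479, 975, 1510 and 1531 in CD45RBlo and 1006, 1277 and 760 in naive libraries. The groups overlapped widely, each pair was lower in CD45RBhi (-0.22, -0.82, -0.26 and -0.11), and the estimate was -0.35 ± 0.0882 (adjusted p = 0.038, and 0.038 to 0.119). The Flna call was lost without pair 1 or pair 3, and after correction for length and GC content, and without pair 2 the estimate was -0.20, still called.

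**Figure D3:**
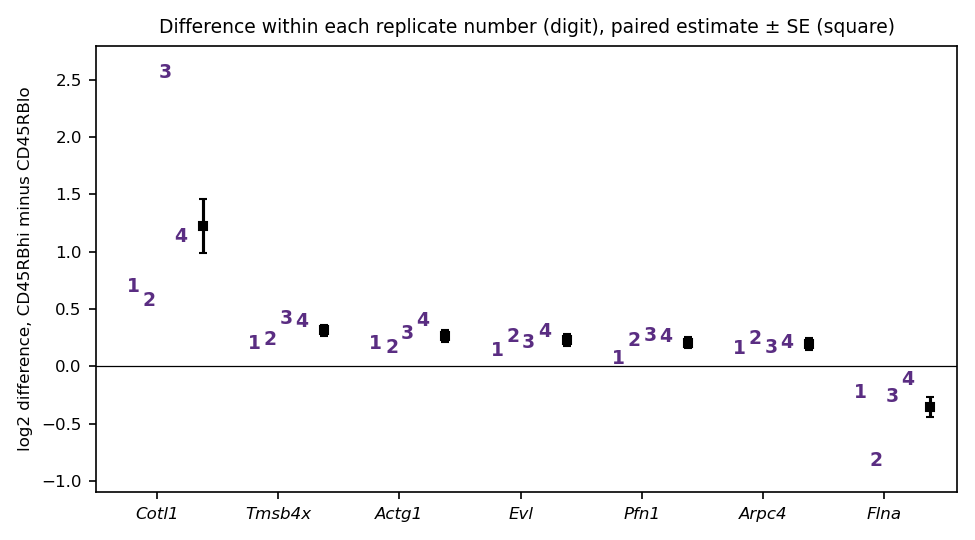
Log2 difference of CD45RBhi minus CD45RBlo (y axis) for the 7 members called in the paired fit, with each digit 1 pair of same-numbered libraries and the square the paired estimate ± SE. All pairs of Cotl1, Tmsb4x, Actg1, Evl, Pfn1 and Arpc4 lie above 0 and all pairs of Flna below it, and pair 3 of Cotl1 stands far above its other pairs. Selection by the paired fit on these same pairs favours pairs that share a direction.

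The memory groups did not overlap for 4 members, Tmsb4x, Arpc4, Arpc5 and Vim, all higher in CD45RBhi, where the background was 2.68% of all genes higher and 2.31% lower (4.99% in all). Arpc5 and Vim did not pass in the paired fit (0.12 ± 0.0469 and 0.17 ± 0.0524, adjusted p = 0.172 and 0.0811). Coro2a, named above, stood at -0.25 ± 0.0730 in the paired fit (adjusted p = 0.0656), and Wipf1 at -0.13 ± 0.0683 (adjusted p = 0.31).

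The direction of the differences moved with gene length. Over all genes tested, the median log2 difference of CD45RBhi from CD45RBlo was 0.08, 0.01, -0.03 and -0.05 in 4 length classes of equal size, from the shortest exonic lengths to the longest. Among members, 4 of 4 in the shortest class had a difference above 0, then 14 of 19, 5 of 11 and 3 of 14 in the longest. Over all genes tested, the shares above 0 in these classes were 62.4%, 52.5%, 42.2% and 38.3%. The short genes Tmsb4x (1371 bases) and Cotl1 (1596 bases) stood at one end and Flna (9400 bases) at the other. With a correction for length and GC content added to the paired fit, 11 members were higher and 0 lower: Actb, Coro1a, Actn1, Lcp1 and Vim joined the 6 above, and Flna left. The background in that fit moved as well, to 3.71% of all genes higher and 2.04% lower (5.75% in all). In that fit 35 of 48 members had a difference above 0, against 26 in the paired fit without the correction. Over all genes, 48.9% lay above 0 in the paired fit without the correction. The median of all genes moved from -0.005 to 0.020 with the correction. Added to the unpaired fit, the correction changed the sign of 11 of the 48 members. The largest of these 11 differences was 0.133 in size before it. How much of each difference goes with length was not tested.

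**Figure D4:**
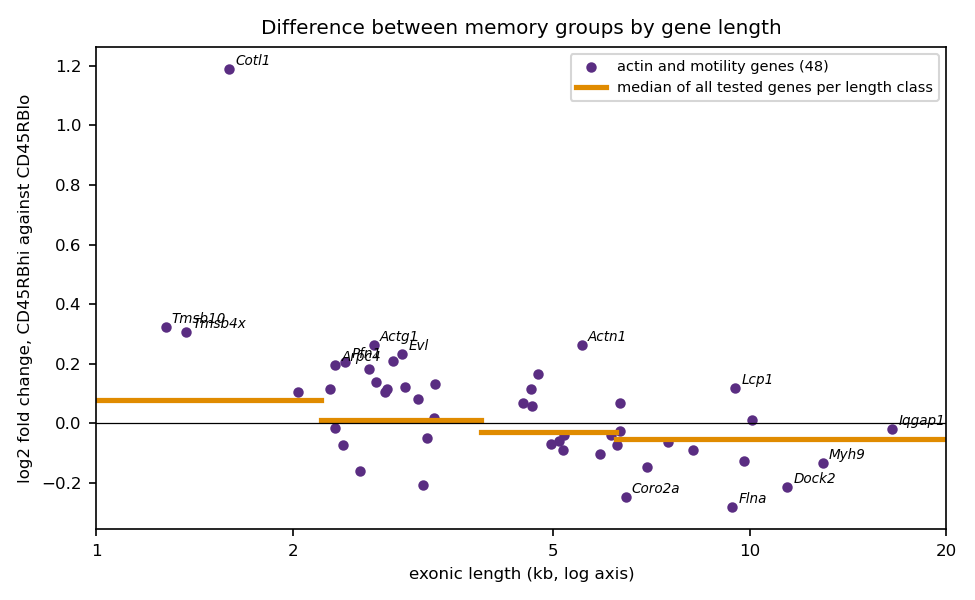
Log2 fold change of CD45RBhi against CD45RBlo without the pairing (y axis) against exonic length (x axis, kb, log axis) for the 48 members (points), with the median of all tested genes in each of 4 length classes (orange bars). The bars step down from 0.08 to -0.05, and the members run from above 0 for most short genes to below 0 for most long ones, with Cotl1 far above the rest.

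Among the other genes of the pathway, 0 of 118 passed without pairing, beside 0.124% of all genes. In the paired fit, 2 of 115 were higher (1.74%) and 6 lower (5.22%), beside 2.52% and 3.08% of all genes. Capza2, a capping protein subunit (0.25 ± 0.0505, adjusted p = 0.0159), and Tagln2, a transgelin that bundles filaments (0.22 ± 0.0460, adjusted p = 0.0174), were higher in CD45RBhi. The myosins Myo9b (-0.25 ± 0.0624) and Myo18a (-0.40 ± 0.0894), the filament oxidase Mical1 (-0.19 ± 0.0482), the spectrin Sptan1 (-0.34 ± 0.0707), the GTPase Rhoq (-0.35 ± 0.0774) and the Cdc42 effector Cdc42ep4 (-0.84 ± 0.208) were lower, with adjusted p from 0.0174 to 0.0381. All 4 pairs had the same direction for each of these 8 genes. Their selection by the paired fit on the same pairs favours such agreement, so it adds no support. With the length and GC correction, 7 genes of the list were higher and 3 lower, beside the same shift over all genes (3.71% higher and 2.04% lower), and Mical1, Myo9b, Myo18a and Sptan1 no longer passed.

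Several members varied more among memory libraries of 1 group than between groups, and they did so by replicate number. Flna differed almost 4-fold among CD45RBhi libraries (552 to 2122 CPM), with a coefficient of variation of 48.2%. Tln1 stood at 861, 323, 568 and 788 CPM in CD45RBhi and at 949, 475, 629 and 721 in CD45RBlo libraries, and Myh9 at 757, 290, 511 and 629 and at 812, 384, 548 and 655. In both genes replicate 2 was lowest and replicate 1 highest in both memory groups.

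Actr2 showed the same order, at 483, 228, 425 and 479 CPM in CD45RBhi and 497, 267, 424 and 470 in CD45RBlo libraries. Chosen after its values were seen, this order of replicate 2 lowest and replicate 1 highest in both groups held for 13 of 48 members (27.1%) and for 1274 of the 13735 genes tested (9.28%). The 13 were Actb, Actg1, Actr2, Wasf2, Wipf1, Flna, Iqgap1, Tln1, Myh9, Dock2, Dock8, Rhoa and Cdc42, and 8 of them lie in the longest of the 4 length classes, which holds 14 members. Naive libraries differed in these genes as well: Tln1 stood at 562, 839 and 447 CPM, Myh9 at 712, 969 and 551 and Wasf2 at 116, 127 and 83.4, each with naive 2 highest and naive 3 lowest. Other members went the opposite way: replicate 2 was highest in both memory groups for 13 of 48 members (27.1%), against 18.6% of all genes. Replicate 2 was lowest in both for 19 of 48 (39.6%), against 20.9% of all genes. What sets the replicate numbers apart is not stated in the labels and was not tested.

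**Figure D5:**
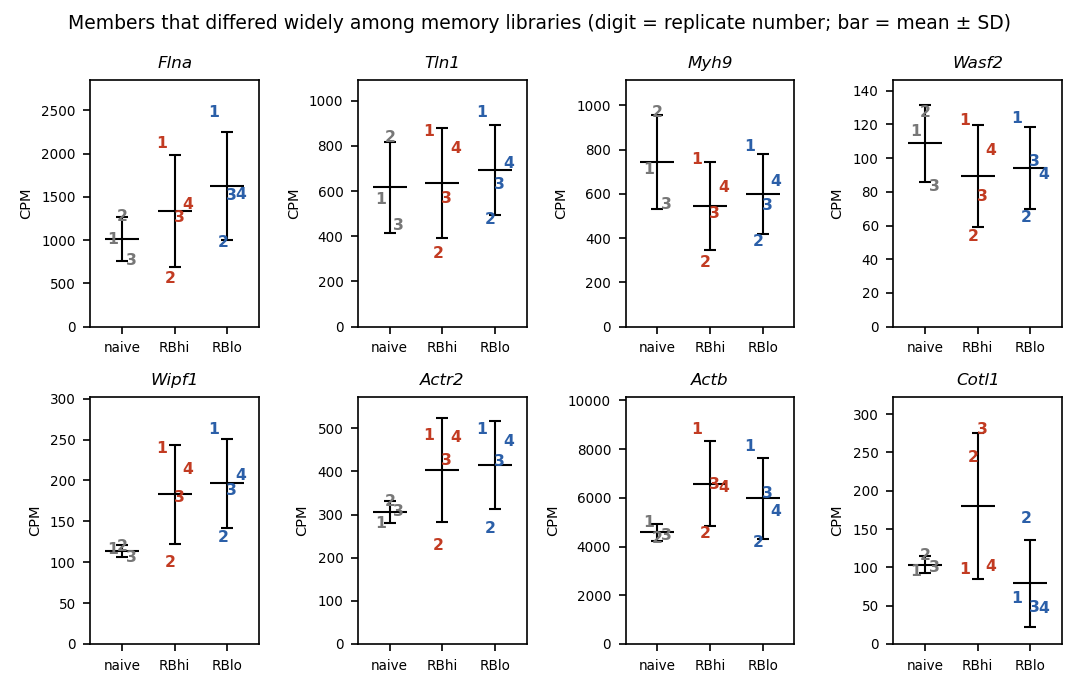
Level of 8 members in each library (y axis, CPM from 0; each digit is 1 library at its replicate number, the cross-bar the mean and SD of 3 naive, 4 CD45RBhi and 4 CD45RBlo libraries). Except for Cotl1, replicate 2 is lowest and replicate 1 highest in both memory groups in all panels, and the spread within a group is as wide as the differences between groups.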

How the data were processed

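The deposited values are raw read counts per gene for 11 libraries, not normalized by the authors. SAMtools, featureCounts, DESeq2, mm10 and GRCm38 are named, without versions, per the submitters' processing notes; for the aligner, annotation release and strandedness nothing is given in the sources used here, so reads of overlapping antisense genes cannot be told apart. Depth was 18.0 to 23.2 M counts a library, and none of 15 replicate pairs held identical values (chi-square per degree of freedom 10.2 to 93.3).

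Genes were filtered with filterByExpr in edgeR 4.0.16 (R 4.3.3; minimum count 10; 13735 genes), scaled by TMM and compared in 1 model of group means over all 11 libraries with the two-sided quasi-likelihood F test and Benjamini-Hochberg adjustment over all genes, threshold 0.05. The coefficient of variation was 18.7%. Levels are CPM, differences log2 ± SE. The test was tried on simulated data. Alternatives were DESeq2 1.42.0 (Wald test and size factors), library size alone, scaling without the members, no filter, a test against 1.5-fold, a length and GC correction, only the groups compared, and leaving out each library.

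Same-numbered CD45RBhi and CD45RBlo libraries deviated together (correlations over genes 0.191 to 0.452; different numbers -0.331 to 0.0284), so a paired fit of the 8 memory libraries (12637 genes, coefficient of variation 9.88%) is given beside the unpaired one; naive libraries did not pair (-0.101 to 0.0565). Exonic lengths, positions and the 50-base comparison came from GENCODE M21 (GRCm38). It matched 52403 of 52636 identifiers, including all 48 members, and may differ from the authors' annotation. Promoters are RefSeq's. Library values were given for paralog sets, for up to 8 members a direction with the largest called change against naive, and for every member called between memory groups; from the pathway list, up to 4 a direction and the genes called between memory groups. The members, lists and rules were chosen with earlier results of these data known.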

Additional observations from a re-analysis of the deposited data

Results flagged for a closer look

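Each member was checked in each memory group (96 groups of 4 libraries) for a library whose gap to its nearest neighbour, divided by the group's range, passed Dixon's 95% critical value for 4 libraries. Chance gives about 1 in 20, and 5 of 96 were found. Twf2 and Tmsb10 were each highest in CD45RBlo 1, at 247 CPM against 218 to 221 (ratio 0.892) and at 150 against 104 to 107 (ratio 0.932). Cotl1 was highest in CD45RBlo 2, at 163 CPM against 45.8 to 59.6 (ratio 0.882). Cfl1 was highest in CD45RBhi 4, at 1823 CPM against 1569 to 1607 (ratio 0.852). Actn4 was lowest in CD45RBhi 1, at 548 CPM against 632 to 646 (ratio 0.855). These libraries were kept in all comparisons, and no cause was tested.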

How the results depend on the processing

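No member called in the unpaired or paired fit changed direction under any alternative run. Sizes were less stable, and the Flna difference between the memory groups ranged from -0.60 to -0.0025 over the alternatives. Of the member differences from naive that were not called, 5 of 20 in CD45RBhi and 7 of 23 in CD45RBlo changed sign with library size alone, and the balance over all genes turned as given above. Of the members called against naive, 11 of 28 in CD45RBhi and 8 of 25 in CD45RBlo passed under every one. The test against a 1.5-fold change alone left the same 11 and 8. Library size alone kept 18 and 18, and the DESeq2 Wald test kept 28 and 25. Members called higher in CD45RBhi against naive numbered 24, but 14 with library size alone and 8 against a 1.5-fold change, and those in CD45RBlo 21, but 5 against 1.5-fold, a stricter question by construction. All genes called numbered 5694 and 5794, but 2441 and 2612 against 1.5-fold, and 3786 in CD45RBhi with a replicate block that naive libraries do not share. With that block 16 members rose and 4 fell in CD45RBhi, and 19 and 4 in CD45RBlo. Leaving out single libraries gave 19 to 26 and 18 to 21 members higher. Between the memory groups, 17 genes were called, but 0 against 1.5-fold, 144 by DESeq2 and 4 with the memory libraries alone; leaving out 1 library gave 6 to 15 (6 without CD45RBhi 3 or CD45RBhi 4, 9 without CD45RBlo 1, 7 without CD45RBlo 3 or CD45RBlo 4). The replicate block called 707 genes, 727 with the length and GC correction, and 344, 667, 167 and 300 without pairs 1 to 4. Members higher with the block were 6, or 11 with the correction, and 6, 4, 2 and 2 without pairs 1 to 4, and 1 was lower, also without pair 2 or pair 4. The causes of these shifts were not tested. Counting error was small for all members but Vcl in naive libraries; the spread between libraries, not depth, limits the wide members such as Flna and Cotl1.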
